A study of Mus musculus with 6 samples.

Results

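Protein palmitoylation is carried out by the Zdhhc enzymes, and it is reversed by a smaller set of thioesterases, the depalmitoylases. The genes described here were chosen by name: every mouse gene whose symbol is Zdhhc followed by a number, 8 depalmitoylase genes (Lypla1, Lypla2, Ppt1, Ppt2, Abhd10, Abhd17a, Abhd17b and Abhd17c), and 2 genes of partner proteins, Golga7 and Selenok. The rule found 34 genes among the 29370 of the deposited gene matrix, of which 24 were Zdhhc genes, and no gene of the rule was missing. The study sequenced the RNA of mouse CD8+ T cells, which destroy infected cells and tumour cells, to ask how palmitate affects their function. One group of 3 libraries came from cells given 100 µM palmitate, a saturated fatty acid, and the other group of 3 libraries came from control cells, with 48 h of treatment. All cells were from wild-type mice, taken from pancreas, spleen and lymph nodes per the labels' protocols, and kept in complete T cell medium. Neither the age of the mice nor the vehicle given to control cells is stated in the sources used here. The labels do not say whether each library is its own animal or culture, so the p-values reflect only how these libraries vary among themselves, and that variation may be technical.

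In S-palmitoylation a fatty acyl chain, most often palmitate, is moved from its coenzyme A ester to a cysteine of a protein through a thioester bond, which holds that protein at membranes. Zdhhc enzymes carry a conserved Asp-His-His-Cys motif that takes up the acyl chain before passing it on. The bond can be cut again, so a protein may cycle between membranes. In T cells the kinases Lck and Fyn and the adaptor Lat are palmitoylated, which places them near the T cell receptor.

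Gene counts summed to 16724588 to 24777611 in the palmitate libraries and to 26042768 to 29362276 in the control libraries. All 7 markers of CD8 T cells were detected, and 5 of them, Cd3d, Cd3e, Cd3g, Cd8a and Cd8b1, were called higher with palmitate while Gzmb was called lower. Of the markers of other cells, Ins1, Ins2, Ctrb1 and Pnlip of pancreas and S100a8 and S100a9 of myeloid cells were at 0 in every library. Prss2 and Cela1 of pancreas and Cd68 and Itgam of myeloid cells were above 0 in every library. In CPM (counts scaled to a common library total), the 8 pancreas markers summed to 1.24 to 2.86 over the 6 libraries, and the 9 myeloid markers to 2.65 to 4.95. The 8 B and plasma cell markers summed to 264.0 to 286.2 CPM in palmitate libraries and 175.2 to 243.7 CPM in control libraries. Most of that was Ighm, which was not called, while Jchain and Cd79a were called higher and Sdc1 was lower without a call. The 3 erythroid markers, most of it Hbb-bs, summed to 4.12 to 6.64 CPM in palmitate libraries and 0.987 to 2.00 CPM in control libraries. The 4 markers of CD4 and regulatory T cells summed to 3.70 to 6.72 CPM in palmitate libraries and 1.96 to 2.81 CPM in control libraries. Most of that was Zbtb7b. The 5 markers of stroma and endothelium, nearly all of it Pecam1, summed to 46.7 to 63.8 CPM in palmitate libraries and 35.6 to 42.1 CPM in control libraries, and the 4 of NK cells, nearly all of it Eomes, summed to 145.7 to 165.5 CPM in palmitate libraries and 170.4 to 189.1 CPM in control libraries. The pancreas and myeloid sums overlapped between the groups, while the other sums did not. The part of any of these sums in the results below was not tested. Among the control libraries, control 1 lay nearest to the palmitate libraries on the first principal component of all genes (44.2% of the variance), at 11.9 against 40.4 and 32.5 for the other control libraries, with palmitate libraries at −35.3 to −23.3. On the second component palmitate 1 (18.3) and control 1 (31.6) lay apart from the other libraries (−22 to 0.341). In RNA from whole cultures, fewer cells of a type and less RNA per cell cannot be told apart.

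Of the 34 palmitoylation genes, 28 passed the filter on low counts and were tested. They were 18 Zdhhc genes, all 8 depalmitoylases and both partner genes. With palmitate, 1 gene rose (Zdhhc15) and 2 genes fell (Zdhhc16 and Abhd17c) by edgeR's quasi-likelihood test at an adjusted p of 0.05. These are 10.7% of the tested members, where 22.9% of all 12068 tested genes were called, 11.1% risen and 11.7% fallen (with upper-quartile scaling 61.1% of all called genes were risen, against 48.7% in the scaling used here). The median log2 fold change of the tested members was −0.11, and it was 0.02 for all tested genes. In absolute size the medians were 0.18 for the members and 0.25 for all genes. Groups of libraries did not overlap for 9 of the 28 members (32.1%), and 42.9% of all tested genes had such groups.

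**Figure D1:**
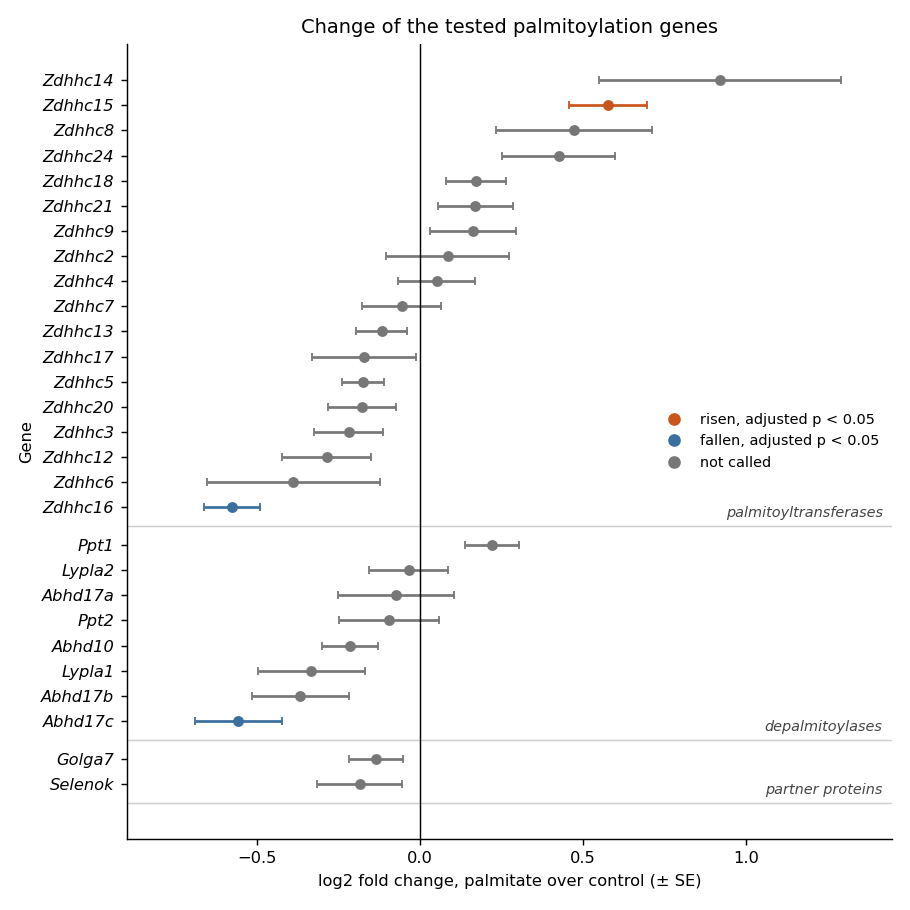
Log2 fold change, palmitate over control, with its standard error (x axis) for the 28 tested genes (y axis), grouped as palmitoyltransferases, depalmitoylases and partner proteins. Zdhhc15 in orange rose, Zdhhc16 and Abhd17c in blue fell, and the 25 genes in grey were not called.

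Promoters of the 3 called genes are shown so that the sequence in front of each changed RNA can be read beside its values. Each is 300 bases from RefSeq, build GRCm38.p6, running from 250 bases before to 50 bases after the annotated start, in the direction of transcription. Capitals mark the GC box GGGCGG or its reverse complement CCGCCC, which may overlap each other. The Abhd17c promoter is chr7:84151844-84152143 on the minus strand, that of Zdhhc16 is chr19:41933195-41933494 on the plus strand, and that of Zdhhc15 is chrX:104671015-104671314 on the minus strand.
Zdhhc15: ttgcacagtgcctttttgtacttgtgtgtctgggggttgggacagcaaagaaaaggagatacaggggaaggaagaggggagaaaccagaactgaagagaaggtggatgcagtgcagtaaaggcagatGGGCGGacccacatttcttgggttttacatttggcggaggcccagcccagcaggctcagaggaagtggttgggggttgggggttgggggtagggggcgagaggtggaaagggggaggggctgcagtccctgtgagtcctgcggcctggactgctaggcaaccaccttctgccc
Zdhhc16: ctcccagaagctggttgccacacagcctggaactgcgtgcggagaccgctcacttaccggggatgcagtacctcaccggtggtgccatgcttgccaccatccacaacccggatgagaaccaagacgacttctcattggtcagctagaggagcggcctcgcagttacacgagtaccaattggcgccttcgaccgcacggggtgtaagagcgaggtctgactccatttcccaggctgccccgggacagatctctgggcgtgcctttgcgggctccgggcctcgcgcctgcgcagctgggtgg
Abhd17c: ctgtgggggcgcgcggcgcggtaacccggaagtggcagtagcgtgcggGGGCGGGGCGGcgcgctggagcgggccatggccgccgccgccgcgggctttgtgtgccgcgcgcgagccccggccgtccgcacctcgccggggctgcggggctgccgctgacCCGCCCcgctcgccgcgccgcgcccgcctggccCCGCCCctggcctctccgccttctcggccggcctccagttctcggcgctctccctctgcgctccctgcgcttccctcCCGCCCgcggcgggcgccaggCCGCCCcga
The promoters differ in base composition. That of Abhd17c is 82.3% G or C with 52 CpG, that of Zdhhc16 is 63.0% with 22 CpG, and that of Zdhhc15 is 58.0% with 4 CpG, where the median over the 32851 promoters of the table is 52.7% G or C. GC boxes numbered 6 in the Abhd17c promoter, 1 in the Zdhhc15 promoter and 0 in the Zdhhc16 promoter, and 35.7% of all promoters hold at least 1. Neither the E-box CACGTG, held by 7.15% of promoters, nor the nuclear receptor half-site AGGTCA, held by 16.3%, was found on either strand in these 3 windows. These are matches of letters only and say nothing about what binds there. The table held a promoter for 27 of the 34 members.

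The lowest adjusted p among the members belonged to Zdhhc16, on chromosome 19, which fell. Its product sits in the endoplasmic reticulum and in human cells palmitoylates another member of the family, ZDHHC6. Zdhhc16 had 18.9, 18.2 and 20.3 CPM in palmitate libraries 1 to 3 and 28.0, 27.9 and 29.7 CPM in control libraries 1 to 3. Every palmitate library lay well below every control library, and the spread within each group was small. The means were 19.1 ± 1.06 CPM with palmitate and 28.5 ± 0.970 CPM in control cells (SD, n = 3 each), a log2 fold change of −0.58 ± 0.09 (SE; adjusted p = 0.00543, edgeR quasi-likelihood). The call held in all 6 fits that each left out 1 library. The gene matrix held 68.3% of the reads that the transcript tables assign to Zdhhc16, and in sums over all its transcripts with length offsets the log2 fold change was −0.48 (adjusted p = 0.0101). Zdhhc16 shares exon bases with Mms19 on the opposite strand, whose log2 fold change was 0.33 (adjusted p = 0.0700). No source used here gives the strand setting of the counting, so reads of such pairs cannot be told apart.

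Zdhhc15, on chromosome X, was the palmitoyltransferase gene that rose. Its enzyme is known for acting on the synaptic scaffold protein PSD-95. Zdhhc15 had 23.0, 18.8 and 18.4 CPM in palmitate libraries 1 to 3, against 14.5, 12.6 and 13.4 CPM in control libraries 1 to 3. The groups did not overlap, and palmitate 1 was the highest of all libraries. The log2 fold change was 0.58 ± 0.12 (SE; adjusted p = 0.0143, edgeR quasi-likelihood), and the call held in 5 of the 6 fits that left out 1 library. Without control 3 the log2 fold change was 0.57 with an adjusted p of 0.0665. Its level per length was low in both groups, at 5.04 TPM with palmitate and 3.27 TPM in control cells, so the rise concerns one of the scarcer RNAs of the family.

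Abhd17c, on chromosome 7, fell. ABHD17 proteins are serine hydrolases at the plasma membrane, which in human cells remove palmitate from N-RAS and from PSD-95. Abhd17c had 46.4, 45.6 and 55.8 CPM in palmitate libraries 1 to 3 and 59.2, 78.6 and 79.6 CPM in control libraries 1 to 3. Control 1 lay just above palmitate 3, and the other control libraries lay far above. The log2 fold change was −0.56 ± 0.13 (SE; adjusted p = 0.0231, edgeR quasi-likelihood). That call held in 2 of the 6 fits that left out 1 library, without control 1 (adjusted p = 0.00507) and without palmitate 3 (adjusted p = 0.0371). It was lost without control 2 (0.0716), control 3 (0.0924), palmitate 1 (0.0721) or palmitate 2 (0.0677), with log2 fold changes of −0.49 to −0.52.

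The related genes Abhd17b and Abhd17a were not called. Abhd17b had 46.1, 43.8 and 50.6 CPM with palmitate and 46.3, 68.7 and 66.2 CPM in control cells, in library order. As for Abhd17c, control 2 and control 3 were high, and here control 1 fell inside the palmitate range. The log2 fold change of Abhd17b was −0.37 ± 0.15 (SE; adjusted p = 0.111), and without control 1 it was −0.53 (adjusted p = 0.00659). Abhd17a averaged 11.98 ± 1.27 CPM with palmitate and 12.6 ± 2.81 CPM in control cells (SD, n = 3 each), with groups that overlapped fully.

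**Figure D2:**
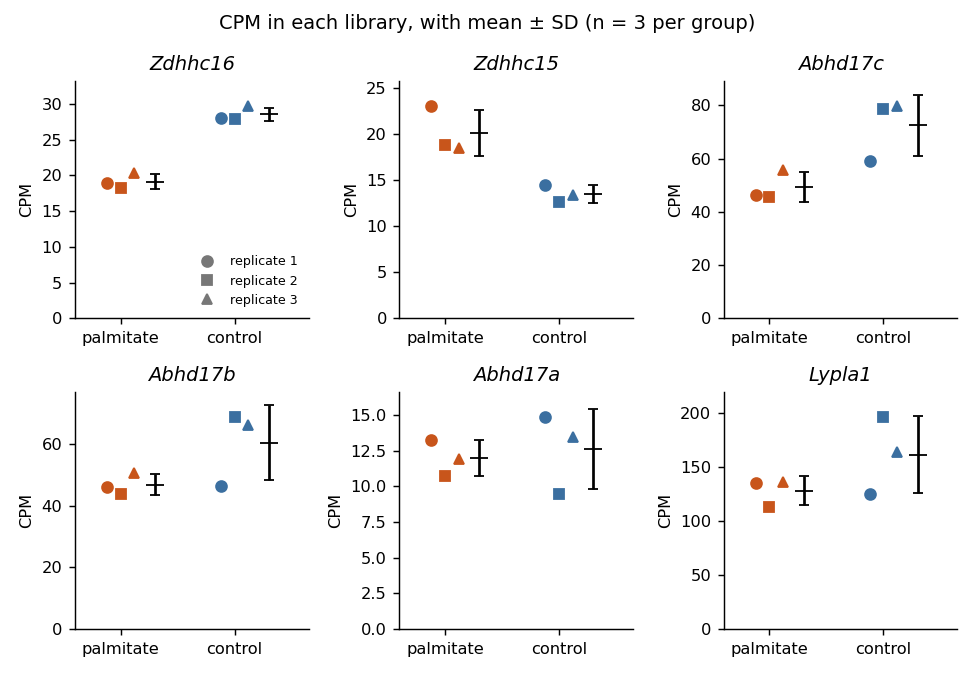
CPM (y axis, starting at 0) of 6 genes in each library, palmitate libraries on the left and control libraries on the right, with marker shapes for replicates 1 to 3 and the mean ± SD beside them (n = 3 per group). Zdhhc16, Zdhhc15 and Abhd17c have groups that do not overlap, while in Abhd17b and Lypla1 control 1 lies within the palmitate range.

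Lypla1 encodes APT1, a cytosolic acyl-protein thioesterase, and was the depalmitoylase gene with the highest RNA level. It had 135.2, 112.6 and 136.5 CPM in palmitate libraries 1 to 3 and 124.7, 196.3 and 163.7 CPM in control libraries 1 to 3. Control 1 again lay among the palmitate libraries, while the other control libraries were higher. Its log2 fold change was −0.33 ± 0.16 (SE; adjusted p = 0.180). It was −0.50 without control 1 (adjusted p = 0.0193) and −0.18 without control 2 (adjusted p = 0.434). Lypla2, which encodes the related APT2, averaged 23.9 ± 0.737 CPM with palmitate and 24.5 ± 3.95 CPM in control cells, with overlapping groups.

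The depalmitoylases of organelles were also not called. Ppt1 encodes the lysosomal palmitoyl-protein thioesterase whose loss causes a neuronal ceroid lipofuscinosis. It had 47.2, 45.2 and 49.1 CPM with palmitate and 40.7, 37.7 and 43.0 CPM in control cells. Its palmitate libraries all lay above its control libraries, and the log2 fold change was 0.22 ± 0.08 (SE; adjusted p = 0.0910). With the replicate number as a block the adjusted p was 0.0498. Abhd10, whose mitochondrial product removes palmitate from a peroxiredoxin, averaged 17.6 ± 0.608 CPM with palmitate and 20.4 ± 0.513 CPM in control cells, without overlap (log2 fold change −0.21, adjusted p = 0.104). Ppt2, a second lysosomal thioesterase, averaged 7.01 ± 0.366 CPM with palmitate and 7.49 ± 1.05 CPM in control cells. Of the 8 depalmitoylases, 7 had a negative log2 fold change (all but Ppt1), with a median of −0.16. Those of Lypla2 (−0.04), Abhd17a (−0.08) and Ppt2 (−0.10) were small. Lypla2 and Abhd17a turned positive without control 1, and Lypla2 also with upper-quartile scaling. Of the 8, 1 passed the test, beside 22.9% of all tested genes. The share of all genes with a negative value is not given here.

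The palmitoyltransferases tied to T cell signalling and to the partner proteins were not called. Zdhhc21, whose enzyme acts on Lck and Fyn, had 108.9, 83.7 and 93.9 CPM with palmitate and 78.6, 95.7 and 80.4 CPM in control cells. Its groups overlapped, and the log2 fold change was 0.17 ± 0.12 (SE; adjusted p = 0.316). Zdhhc9 forms with the Golgi protein encoded by Golga7 the Ras palmitoyltransferase known from human cells. Zdhhc9 averaged 9.24 ± 0.888 CPM with palmitate and 8.26 ± 0.405 CPM in control cells, and Golga7 averaged 81.2 ± 4.23 CPM with palmitate and 89.2 ± 6.98 CPM in control cells (adjusted p = 0.398 for Zdhhc9 and 0.258 for Golga7). Selenok, a selenoprotein of the endoplasmic reticulum that works with Zdhhc6 on the inositol trisphosphate receptor calcium channel, averaged 40.2 ± 3.13 CPM with palmitate and 45.6 ± 7.61 CPM in control cells (log2 fold change −0.19, adjusted p = 0.329; −0.32 and 0.0466 without control 1, −0.083 and 0.699 without control 2).

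Other palmitoyltransferases showed smaller or noisier differences. Zdhhc5, a plasma membrane enzyme that acts with Zdhhc4 on the fatty acid receptor CD36 in mouse adipocytes, had 112.5, 120.9 and 112.4 CPM with palmitate and 129.4, 133.4 and 127.9 CPM in control cells. Its groups did not overlap, and the log2 fold change was −0.18 ± 0.06 (SE; adjusted p = 0.0808), the lowest adjusted p among the members not called. Zdhhc4 itself averaged 16.3 ± 1.39 CPM with palmitate and 15.8 ± 1.68 CPM in control cells. Zdhhc3 and Zdhhc7 encode related Golgi enzymes of broad substrate range. Zdhhc3 averaged 93.6 ± 10.3 CPM with palmitate and 109.0 ± 11.5 CPM in control cells (adjusted p = 0.165; 0.0294 with the replicate block), and Zdhhc7 averaged 27.0 ± 2.43 CPM with palmitate and 28.1 ± 3.93 CPM in control cells.

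Zdhhc8, known from neurons, had 18.5, 13.8 and 15.03 CPM with palmitate and 15.8, 8.46 and 9.80 CPM in control cells. Control 1 lay inside the palmitate range. Its log2 fold change was 0.47 ± 0.24 (SE; adjusted p = 0.189), with an adjusted p of 0.0169 under the replicate block. It was 0.78 without control 1 (adjusted p = 0.0126) and 0.30 without control 2 (adjusted p = 0.417). Zdhhc14 was measured at a very low level, with 2.42, 1.34 and 1.37 CPM with palmitate and 1.27, 0.802 and 0.634 CPM in control cells. Its groups lay close together without overlap, and the log2 fold change was 0.92 ± 0.37 (SE; adjusted p = 0.108, 0.0319 with the replicate block). Without palmitate 1 it was 0.57 (adjusted p = 0.350). Zdhhc24 averaged 6.56 ± 0.682 CPM with palmitate and 4.89 ± 0.697 CPM in control cells (adjusted p = 0.109), and Zdhhc12 averaged 5.52 ± 0.209 CPM with palmitate and 6.73 ± 0.182 CPM in control cells (adjusted p = 0.162), both without overlap. Most Zdhhc24 reads (80.1%) lay in a processed transcript, and its coding transcript held 4.85%.

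The remaining tested Zdhhc genes had overlapping groups. Zdhhc13 and Zdhhc17 encode the ankyrin-repeat members of the family, of which Zdhhc17 acts on huntingtin. Zdhhc13 averaged 62.1 ± 2.16 CPM with palmitate and 67.4 ± 4.75 CPM in control cells, and Zdhhc17 averaged 15.9 ± 1.68 CPM with palmitate and 17.9 ± 3.74 CPM in control cells. Zdhhc20, whose human enzyme palmitoylates the epidermal growth factor receptor, averaged 110.8 ± 11.2 CPM with palmitate and 125.6 ± 13.6 CPM in control cells. Zdhhc18, a Golgi enzyme, averaged 55.5 ± 0.940 CPM with palmitate and 49.3 ± 5.30 CPM in control cells (adjusted p = 0.208; log2 fold change 0.17, 0.26 without control 1 with an adjusted p of 0.0462, and 0.10 without control 3 with an adjusted p of 0.535), and Zdhhc2 averaged 16.1 ± 1.07 CPM with palmitate and 15.2 ± 4.33 CPM in control cells. Over all 25 tested members without a call, log2 fold changes ran from −0.39 to 0.92 and adjusted p from 0.0808 to 0.852. An unadjusted p under 0.05 was found for 9 tested members, 6 of them without a call (Zdhhc5, Ppt1, Abhd10, Zdhhc14, Zdhhc24 and Abhd17b). The share of all tested genes at that unadjusted bound is not given here, and 22.9% of them passed it even after adjustment. Exon bases shared with a gene on the opposite strand were also found for Zdhhc2, Zdhhc3, Zdhhc5, Zdhhc6, Zdhhc12 and Ppt1. They were found too for Zdhhc4, Golga7 and Abhd10, with a partner gene at 0 counts. Partner counts exceeded the member's for Zdhhc6 (Acsl5, 81401 against 785), Ppt1 (Cap1, 64905 against 6485) and Zdhhc2 (Cnot7, 19931 against 2312). They were lower for Zdhhc3, Zdhhc5 and Zdhhc12. Cnot7 was called lower (log2 fold change −0.40, adjusted p = 0.0313), while Acsl5 (−0.13) and Cap1 (0.15) were not called. The part of such reads in the member values was not tested.

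The calls among the members depended on the use of a replicate block and on control 1. With the replicate number as a block, 4 members rose (Zdhhc8, Zdhhc14, Zdhhc15 and Ppt1) and 3 fell (Zdhhc3, Zdhhc16 and Abhd17c), against 33.1% of all genes called in that fit. Without control 1, 3 rose (Zdhhc8, Zdhhc15 and Zdhhc18) and 5 fell (Zdhhc16, Abhd17b, Abhd17c, Lypla1 and Selenok), against 27.8% of all genes. Zdhhc15, Zdhhc16 and Abhd17c were called in both of these fits.

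Levels of different genes were compared as TPM, the transcript abundance measure that divides reads by transcript length. Summed over a gene's transcripts, Selenok was highest, with 132.6 ± 15.2 TPM in palmitate cells and 140.1 ± 19.8 TPM in control cells (SD, n = 3 each). Lypla1 followed, with 102.6 ± 1.23 TPM with palmitate and 117.3 ± 17.3 TPM in control cells. Next came Golga7, with 73.9 TPM with palmitate and 78.5 TPM in control cells. Among the palmitoyltransferases Zdhhc20 and Zdhhc6 led, with 53.6 TPM (Zdhhc20) and 57.0 TPM (Zdhhc6) in palmitate cells and 58.5 TPM (Zdhhc20) and 51.5 TPM (Zdhhc6) in control cells. A mean of at least 10 TPM was reached by 11 of the 24 Zdhhc genes, and 5 had a mean under 1 TPM. Part of these sums comes from transcripts annotated as not coding for the protein: over all libraries the protein-coding transcripts gave 24.0 TPM for Selenok, 11.3 TPM for Zdhhc18, 9.78 TPM for Zdhhc3, 5.13 TPM for Zdhhc17 and 0.147 TPM for Zdhhc24.

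Summed TPM of the 24 Zdhhc genes was 447.3, 390.3 and 379.4 in palmitate libraries 1 to 3 and 426.2, 400.3 and 398.6 in control libraries 1 to 3, so the groups overlapped. Summed TPM of the 8 depalmitoylases was 260.1, 247.5 and 260.1 in palmitate libraries and 267.4, 319.8 and 301.2 in control libraries. All palmitate libraries were below all control libraries there, with control 1 the nearest. Mean TPM differed most for Abhd17c (36.7 with palmitate, 53.4 in control cells), Lypla1 (102.6 and 117.3) and Abhd17b (36.8 and 47.3). Of these, Abhd17c alone was called. Ppt1 was higher with palmitate (26.1 and 21.5 TPM), so the sum does not describe every gene in it. No test was made on either sum.

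**Figure D3:**
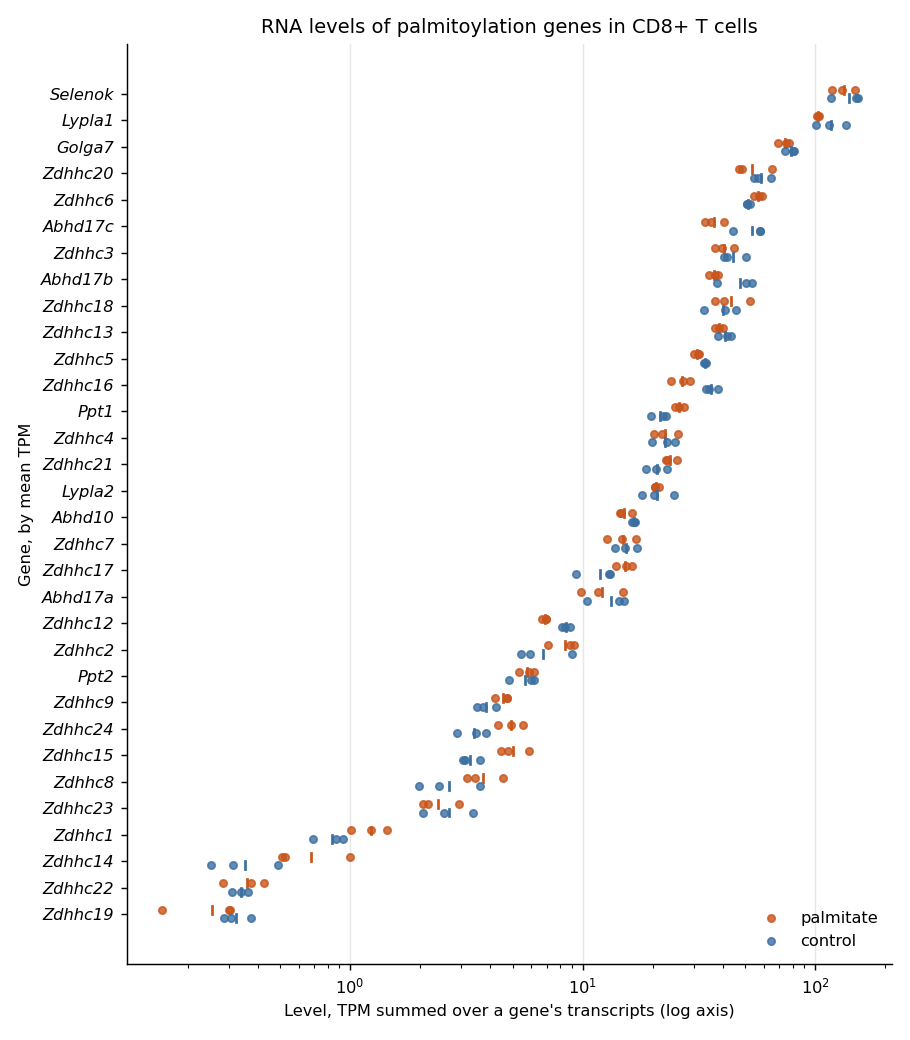
Level of each gene in TPM summed over its transcripts (x axis, log scale), with the genes ordered by their mean (y axis), palmitate libraries in orange above control libraries in blue, and ticks at the group means. Levels run from over 100 TPM for Selenok and Lypla1 to under 1 TPM for Zdhhc14, Zdhhc22 and Zdhhc19; Zdhhc11 and Zdhhc25, which are at 0 in at least 1 library, are not drawn.

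The 6 Zdhhc genes that were not tested had few or no counts in the matrix. Zdhhc1, Zdhhc11 and Zdhhc22 were at 0 in all 6 libraries, and Zdhhc19, Zdhhc23 and Zdhhc25 had reads in 1 palmitate library each. The transcript tables were less empty. Zdhhc23 had 2.93, 2.16 and 2.06 TPM with palmitate and 3.39, 2.06 and 2.53 TPM in control cells, and Zdhhc1 had 1.01, 1.44 and 1.23 TPM with palmitate and 0.932, 0.870 and 0.695 TPM in control cells. Zdhhc23 therefore overlapped between groups, and Zdhhc1 was higher in each palmitate library. In sums over all transcripts with length offsets, the log2 fold change was 0.51 for Zdhhc1 (adjusted p = 0.228), −0.21 for Zdhhc23 (adjusted p = 0.490) and 0.04 for Zdhhc22 (adjusted p = 0.942). The fit on those sums called 19.6% of all genes and the same 3 members, Zdhhc15, Zdhhc16 and Abhd17c. Zdhhc19 and Zdhhc22 stayed under 1 TPM in every library.

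The gap between matrix and transcript tables followed the numbering of the Ensembl transcripts. For all 34 members, and for 29090 of 29370 genes (99.05%), the matrix equalled to within 1.5 reads the sum of the transcripts numbered below 196000. With all transcripts that equality held for 22 of the 34 members and for 23665 genes (80.58%). Of the 178 transcripts of the members, 50 are numbered above that bound. For 5 tested members the matrix held under 90% of the transcript reads, and for the other 23 it held over 95%.

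Zdhhc6 was the tested gene most affected. Its enzyme lies in the endoplasmic reticulum. The matrix held 6.02% of its reads, from 3.54 to 5.61 CPM in palmitate libraries and from 4.69 to 7.999 CPM in control libraries. The transcript that the matrix leaves out, ENSMUST00000224897, held 86.5% of the gene's reads, while the counted ENSMUST00000076891 held 6.03%. Both encode the same coding region of 1239 bases in the GENCODE annotation. ENSMUST00000224897 had 65.7, 72.5 and 72.3 CPM with palmitate and 60.6, 71.9 and 71.8 CPM in control cells, with groups that overlapped. The log2 fold change of Zdhhc6 was −0.39 (adjusted p = 0.316) in the matrix and 0.09 (adjusted p = 0.382) in the sums over all transcripts with length offsets, so its direction turned with the transcripts counted. In the matrix it was −0.10 without control 3, −0.60 without palmitate 1 and −0.25 without palmitate 2.

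**Figure D4:**
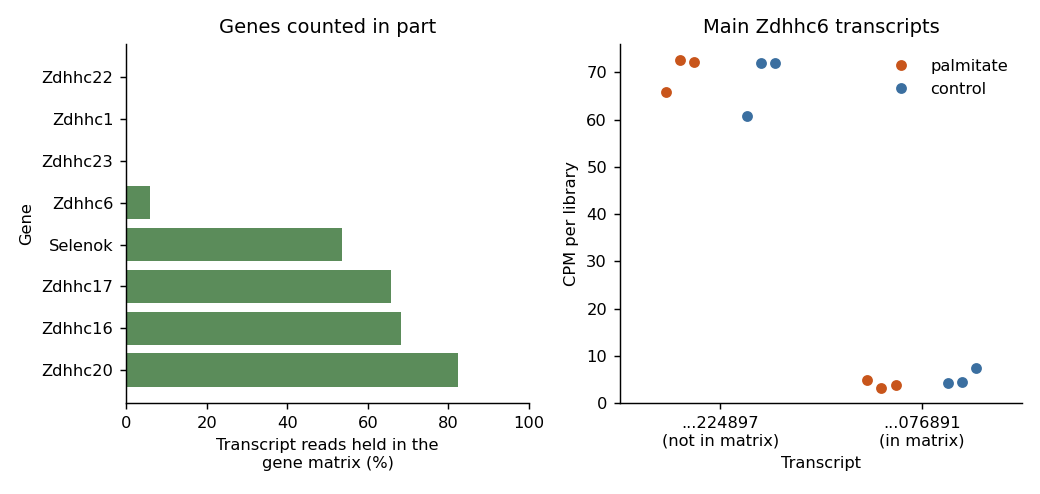
Left, the share of each gene's transcript reads that the gene matrix holds (x axis, percent) for the members with over 100 transcript reads and a share under 90% (y axis), from 82.5% for Zdhhc20 to 0% for Zdhhc1 and Zdhhc22. Right, CPM per library (y axis) of the main Zdhhc6 transcripts (x axis), palmitate in orange left of control in blue; the transcript outside the matrix is the abundant one, and its groups overlap.

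Zdhhc17 had 65.6% of its reads in the matrix, and its direction turned as well. The log2 fold change was −0.17 (adjusted p = 0.465) in the matrix and 0.31 (adjusted p = 0.147) in the sums. Its main coding transcript ENSMUST00000041723 averaged 14.0 ± 1.34 CPM with palmitate and 16.3 ± 4.01 CPM in control cells. ENSMUST00000220247, a transcript annotated for nonsense-mediated decay that the matrix leaves out, averaged 4.77 ± 0.754 CPM with palmitate and 1.72 ± 1.60 CPM in control cells (unadjusted p = 0.273). For Selenok the matrix held 53.7%, leaving out the decay-annotated ENSMUST00000223998 with 46.3% of the reads, and for Zdhhc20 it held 82.5%, leaving out ENSMUST00000226057, a second coding transcript with 15.7%. Of the untested genes, nearly all Zdhhc23 reads lay in ENSMUST00000231700 (93.4%), all Zdhhc22 reads in ENSMUST00000222543 and 97.0% of the Zdhhc19 reads in ENSMUST00000232434, all outside the matrix. Zdhhc1 reads were mostly in ENSMUST00000212303 (49.8%) and ENSMUST00000212109 (40.5%), and Zdhhc11 had 3 reads in all over the 6 libraries, again outside the matrix.

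Single transcripts were tested as well, to see which transcript carries a gene's change. Of 39731 transcripts tested, edgeR called 0 (0%), and 15.8% had an unadjusted p under 0.05. Among the 96 tested transcripts of the members, 0 were called and 12 had an unadjusted p under 0.05. Over all transcripts edgeR called 210 with upper-quartile scaling and 225 with no filter on low counts, none of them a member's. DESeq2 called 6 of the 96, where it called 7.92% of all transcripts, and limma-voom called 0. The 6 were ENSMUST00000147563 of Zdhhc3, ENSMUST00000035840 of Zdhhc5, the retained intron ENSMUST00000236549 of Abhd17b, and the main coding transcripts of Zdhhc15, Zdhhc16 and Abhd17c. For Zdhhc16 the coding transcript ENSMUST00000026154, with 68.2% of the gene's reads, averaged 17.1 ± 1.21 CPM with palmitate and 26.4 ± 1.49 CPM in control cells (log2 fold change −0.63, adjusted p = 0.0718). It was called when only transcripts with a mean of at least 5 CPM were tested, where 7.16% of all transcripts were called. The decay-annotated ENSMUST00000225968 of the same gene averaged 6.003 ± 0.648 CPM with palmitate and 7.77 ± 1.31 CPM in control cells (log2 fold change −0.37, adjusted p = 0.411). Zdhhc15 and Abhd17c each had 1 dominant coding transcript, ENSMUST00000042070 for Zdhhc15 and ENSMUST00000117085 for Abhd17c with 96.2% of its reads.

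Genes for known substrates and for the supply of acyl groups were read beside the enzymes. Of 23 tested genes in a list of palmitoylated proteins of T cells, 6 rose (Pag1, Cd81, Orai1, Fyn, Cd8b1 and Flot1) and 2 fell (Cd9 and Nras), beside 11.1% risen and 11.7% fallen among all tested genes. The median log2 fold change of the list was 0.12. With the replicate block 8 rose and 3 fell, in a fit that called 33.1% of all genes. Leaving out palmitate 1 or palmitate 2 left 3 risen, leaving out palmitate 3 or control 2 left 2, and leaving out control 3 left 1. The fallen numbered 4 when control 1 was left out, 0 for control 3 and 1 for each other library. Over all genes those fits called from 690 without control 3 to 3433 without control 1, where the main fit called 2759. Pag1, an adaptor that brings the inhibitory kinase Csk to the membrane, had 52.3, 47.1 and 46.7 CPM with palmitate and 31.9, 30.9 and 29.6 CPM in control cells. Its groups lay far apart (log2 fold change 0.66 ± 0.08 SE, adjusted p = 0.00370 by edgeR), and the call held in all 6 fits that left out 1 library. The tetraspanins moved in opposite directions, Cd81 with 21.3 ± 2.99 CPM in palmitate cells and 13.2 ± 1.61 CPM in control cells (adjusted p = 0.0123) and Cd9 with 26.4 ± 3.22 CPM in palmitate cells and 44.5 ± 7.42 CPM in control cells (adjusted p = 0.0110). Both calls were lost without control 3. Orai1, the pore of the store-operated calcium channel, averaged 23.9 ± 1.36 CPM with palmitate and 18.1 ± 0.615 CPM in control cells (adjusted p = 0.0174), and its call held in 2 of the 6 fits, being lost without control 2, control 3, palmitate 2 or palmitate 3. Lck (log2 fold change 0.24, adjusted p = 0.124) and Lat (−0.02, adjusted p = 0.943) were not called. Of the 7 CD8 T cell markers, 5 also rose, while Gzmb fell and Cd2 was not called, and Cd8b1 stands in both lists. The 7 markers, most of it Gzmb, summed to 5170 to 6022 CPM in palmitate libraries and 6734 to 8596 CPM in control libraries.

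Of 14 tested genes for acyl-CoA supply and thioesterases, 1 was called by edgeR, beside 22.9% of all tested genes, and the median log2 fold change was −0.13. The called gene was Acot9, which encodes a mitochondrial acyl-CoA thioesterase and fell, with 105.6 ± 2.41 CPM in palmitate cells and 124.6 ± 6.14 CPM in control cells (adjusted p = 0.0352). Of 10 tested genes for other lipid modifications of proteins, 1 was also called, Icmt, which fell and whose enzyme methylates prenylated proteins, with 48.0 ± 2.07 CPM in palmitate cells and 58.5 ± 3.29 CPM in control cells (adjusted p = 0.0347). Each of these calls held in 1 of the 6 fits that left out 1 library, the fit without control 1, and with upper-quartile scaling both were lost. The Acot9 call was also lost in transcript sums with length offsets. With the replicate block the counts were 1 risen and 3 fallen for the acyl-CoA list and 1 risen and 2 fallen for the other modifications, in a fit that called 33.1% of all genes.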

How the data were processed

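RNA was sequenced from CD8+ T cells in 3 palmitate and 3 control libraries. Per the labels' protocols, RNeasy kits gave the RNA and a SMARTER kit the libraries. Salmon 1.10.0, Trim Galore 0.6.10, DESeq 1.42.0 and build GRCm39 are listed in the submitters' processing notes. Deposited by the authors were a gene matrix of estimated counts, which are whole numbers, and Salmon tables of expected counts and TPM per transcript. Those expected counts were rounded for testing. Salmon divides reads that related transcripts share, so transcript values carry that uncertainty, which the test did not model.

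Symbols came from GENCODE M21 and a gene name table and covered 29087 of 29370 gene identifiers. The gene test was edgeR 4.0.16 in R 4.3.3 (TMM scaling, filterByExpr on low counts, robust quasi-likelihood fit, two-sided test, Benjamini-Hochberg adjustment over all 12068 genes, threshold 0.05), with the group as the single term. Every adjusted p in the text comes from this fit unless another is named. Log2 fold changes are palmitate over control. DESeq2 1.42.0, limma-voom (limma 3.58.1), other scalings and filters, a replicate block, transcript sums and fits without each library were alternatives, and the test was checked on simulated data.

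The members and lists were chosen with earlier results of these data known. Every member is accounted for, called members are given in full, up to 4 called genes of each side list are described with values, and transcripts are named where the matrix held under 90% of a gene's reads or where a transcript was called. Zdhhc15 and Abhd17c transcripts, the list members without a call and the overlapping genes were named after their values were seen. Both groups carry replicate numbers 1 to 3. Across genes, same-numbered libraries deviated from their group means together (correlations 0.226, 0.130 and 0.152, against −0.185 to 0.0608 for other pairs). By a bound of 0.1 this was taken as a sign of pairing, which the labels do not state. The main fit left pairing out, and the replicate block was an alternative to it. Replicates of a group differed by more than sampling noise (chi-square per gene 11.2 to 37.2). All 6 columns of the matrix were used.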

Additional observations from a re-analysis of the deposited data

How the results depend on the processing

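The calls of Zdhhc16, Zdhhc15 and Abhd17c held under RLE and upper-quartile scaling, both other filters on low counts, DESeq2, limma-voom, the replicate block and both kinds of transcript sums, of which the sums without length offsets were chosen after seeing the data. Members risen numbered 2 with upper-quartile scaling (Ppt1 added) and 4 with the replicate block, and fallen members numbered 3 with the block. Leaving out 1 library gave 0 to 3 risen members (0 without control 3, 3 without control 1) and 1 to 5 fallen members (5 without control 1; 1 without control 2, control 3, palmitate 1 or palmitate 2). Over all genes, called numbers ran from 690 without control 3 to 3433 without control 1, with 1353 without control 2, 1443 without palmitate 1, 1651 without palmitate 2 and 1304 without palmitate 3. Called member transcripts numbered 6 with DESeq2 and 1 at a mean of at least 5 CPM, and 0 in each fit without 1 library; 0 of all transcripts were called by limma-voom too, with 6610 at an unadjusted p under 0.05.

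Of the log2 fold changes of single members under the alternatives, 392 kept direction and side of the threshold, 10 passed it, 5 lost it and 12 changed sign, all of genes without a call. With transcript sums these were Zdhhc6 (0.094 with and 0.072 without length offsets), Zdhhc17 (0.311 with and 0.218 without) and Zdhhc4 (−0.053 with), and with upper-quartile scaling Lypla2 (0.021). Leaving out 1 library gave −0.027 (without control 2) to 0.126 for Zdhhc4, −0.131 to 0.0973 (without control 1) for Lypla2, −0.158 to 0.043 (without control 1) for Zdhhc7, −0.247 to 0.055 (without control 1) for Abhd17a, and −0.039 (without control 3; −0.028 without control 1) to 0.337 for Zdhhc2. Zdhhc6 and Zdhhc17 turned in both kinds of transcript sums, which count more transcripts than the matrix. The cause was not tested for any of these genes. With 3 libraries per group, differences the size of those of Abhd17b and Lypla1 depended on 1 library.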
